A study of Saccharomyces cerevisiae with 6 samples.

Results

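The stable RNA genes of budding yeast *Saccharomyces cerevisiae* are described here: the small nucleolar RNAs (snoRNAs), the small nuclear RNAs (snRNAs) of the spliceosome, and the RNA components of RNase P, RNase MRP and the signal recognition particle (SRP). They were chosen by name, as every gene whose identifier begins with snR and the genes SCR1, RPR1, NME1 and LSR1. This rule found 85 of the 7032 genes counted. The telomerase RNA TLC1, which the rule also names, was not analysed here. Of the 85 genes, 47 encode C/D box snoRNAs, 29 H/ACA box snoRNAs, 6 spliceosomal snRNAs and 3 the RNAs of RNase P, RNase MRP and SRP.

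C/D box snoRNAs guide the 2′-O-methylation of ribosomal RNA (rRNA), and H/ACA box snoRNAs guide the conversion of its uridines to pseudouridines. A few of either class, among them U3, U14, snR10 and snR30, are needed for cleavage of the pre-rRNA. In yeast most snoRNAs are transcribed from promoters of their own by RNA polymerase II, others are cut out of a transcript that carries several snoRNAs, and some lie in the introns of protein-coding genes. Their transcripts end through the Nrd1-Nab3-Sen1 pathway, are cut by the endonuclease Rnt1 and are trimmed by the nuclear exosome. Dbp2 is a nuclear DEAD-box RNA helicase.

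Transient transcriptome sequencing (TT-seq) reads the RNA that took up 4-thiouracil during a short pulse, here 10 min at 0.32 mg/ml. Cultures grew at 30°C in medium without uracil and with 2% glucose to an OD600 of 0.5, and all 6 cultures carried the empty plasmid pRS426. The 3 wild-type libraries came from a strain listed as BY4741 (*MATa his3Δ1 leu2Δ0 met15Δ0 ura3Δ0*). The 3 *dbp2Δ* libraries came from a *MATα* strain in which KanR replaces *DBP2*, with *his3Δ0*, *leu2Δ0* and *ura3Δ0* and with functional *TRP1*, *MET* and *LYS* genes, so that mating type and the *MET* and *LYS* markers differed together with *DBP2* and cannot be told apart from it. The 3 libraries of a strain are biological replicates. *DBP2* was counted 10976 to 11213 times per wild-type library and at most 2 times in *dbp2Δ*, and *MET17* (the *MET15* gene) was at 0 counts in wild-type but at 1505 or more in *dbp2Δ*, as the listed genotypes have it. *LYS2* had at most 1 count per wild-type library, beside at least 4477 in *dbp2Δ*, which goes against the listed wild-type genotype, since it names no *lys2* mutation.

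The libraries held 6968216 to 13134963 gene counts each. Levels are given as CPM, the counts per 1000000 counts of the effective library size, and fold changes as the log2 of *dbp2Δ* over wild-type with the standard error (SE) from edgeR's quasi-likelihood fit. The threshold for a call was an adjusted p under 0.05 (Benjamini-Hochberg over the 5936 genes with enough counts to test). Of these, 20.0% were called higher in *dbp2Δ* and 21.9% lower (41.9% in either direction), and the median log2 fold change was -0.01. The biological coefficient of variation was 26.6% among wild-type and 9.67% among *dbp2Δ* libraries. In bulk RNA, fewer cells making a transcript and less of it per cell cannot be told apart.

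Of the 85 stable RNA genes, 74 had enough counts to test. Among these, 39 were lower in *dbp2Δ* (52.7%), 10 were higher (13.5%) and 25 were not called, and their median log2 fold change was -0.71. The values of the 3 libraries of a strain did not overlap with those of the other strain for 38 genes that were lower (28.1% of all genes tested) and 10 that were higher (27.7% of all genes tested). The classes differed in their counts: 23 of 27 H/ACA box snoRNAs fell and 1 rose, while 11 of 40 C/D box snoRNAs fell and 9 rose. The RNAs of RNase P, RNase MRP and SRP fell in 3 of 3 cases, and 2 of 4 spliceosomal snRNAs fell. The genes that rose were 87 to 171 nt long with a median of 94.5 nt, and those that fell were 95 to 1004 nt long with a median of 201 nt. The 25 that were not called were 82 to 1175 nt long with a median of 99 nt, so a short median was not particular to the genes that rose.

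**Figure D1:**
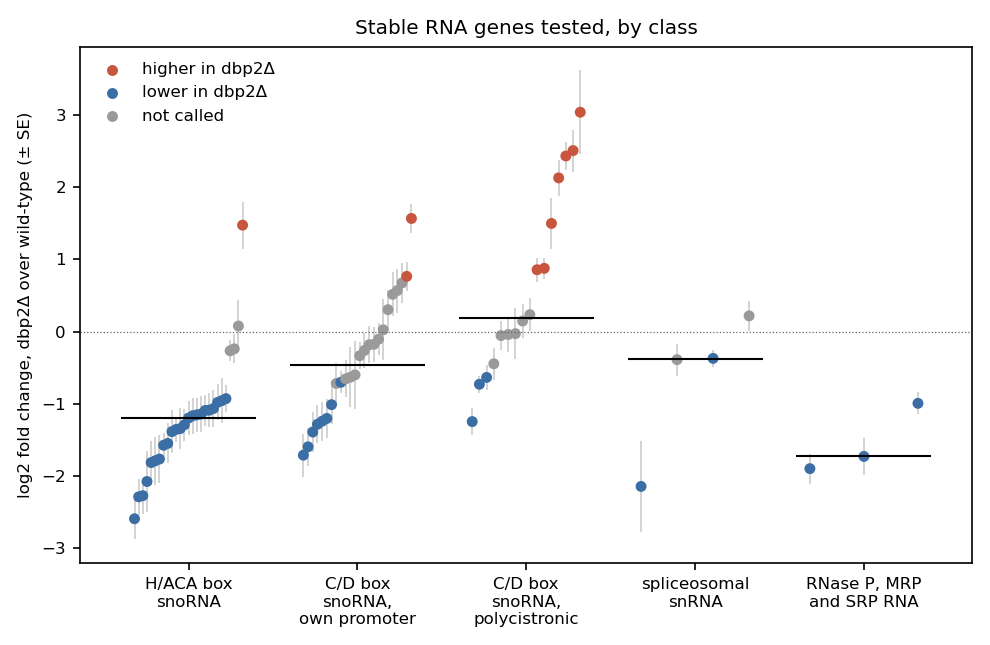
The log2 fold change of *dbp2Δ* over wild-type (vertical axis, with its SE as a grey bar) is plotted for each of the 74 stable RNA genes tested, by class, with red for called higher, blue for called lower, grey for not called and a black line at the class median. Of 27 H/ACA box snoRNAs, 23 lie below 0 as blue points, whereas the polycistronic C/D box snoRNAs reach from -1.25 to 3.05.

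Of the 10 genes that rose, 6 lie in 1 transcription unit. snR78, snR77, snR76, snR75, snR74, snR73 and snR72 are C/D box snoRNAs cut from a common precursor, in this order on the plus strand of chromosome XIII from 297278 to 298651 (R64 build, 1374 bp). All 6 that could be tested rose, by 0.86 to 2.51 on the log2 scale. Each carries an antisense element next to box D or the internal box D′, and the rRNA base opposite the fifth nucleotide upstream of the box is the one methylated. These elements were found by Watson-Crick pairing of the R64 gene sequence with the methylation position given in the R64 annotation. They are shown because they are what tells the members of the array apart, with the box in capitals.
snR78: caaacuagaguuuCUGA
snR77: agcuggaauuacuggCUGA
snR76: agcacugggcaCUGA
snR75: uagaugacgaguCUGA
snR74: agacaagcauauguCUGA
snR73: ucacgacggucaaCUGC
snR72: gauuugcacgucaguCUGA

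The element of snR78 pairs over 11 bases with 25S rRNA around position 2421, and that of snR75 over 11 bases around position 2288. snR76 and snR72 face positions 2197 and 876 of 25S rRNA, snR73 faces position 2959, and snR77 and snR74 face positions 578 and 28 of 18S rRNA. The rRNA stretches opposite the largest rises are shown with the methylated base in capitals.
25S rRNA at snR78: acUcuaguuug
25S rRNA at snR75: cucGucaucua
18S rRNA at snR74: cauAugcuugucu

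The first gene of the array, snR78, had 10.3, 6.94 and 15.0 CPM in the wild-type libraries and 64.3, 72.9 and 47.8 CPM in *dbp2Δ*. Every *dbp2Δ* library lay above the highest wild-type library, and the log2 fold change was 2.51 (SE 0.29, adjusted p = 0.00129). snR75 had 4.20, 3.47 and 4.17 CPM in wild-type and 22.2, 23.0 and 19.2 CPM in *dbp2Δ*, a log2 fold change of 2.44 (SE 0.19, adjusted p = 0.000284). snR74 had 4.11, 3.99 and 2.44 CPM in wild-type and 14.6, 16.6 and 15.1 CPM in *dbp2Δ*, a log2 fold change of 2.13 (SE 0.25, adjusted p = 0.00129). The strains did not overlap for any of the 6 genes tested. snR77 rose less, from 24.4 to 30.6 CPM in wild-type to 45.5 to 57.1 CPM in *dbp2Δ*, a log2 fold change of 0.88 (SE 0.14, adjusted p = 0.00372). snR76 had a log2 fold change of 0.86 (SE 0.17, adjusted p = 0.00651), from 24.2 to 32.3 CPM in wild-type to 45.2 to 55.9 CPM in *dbp2Δ*. The last gene, snR72, had few counts: 24, 24 and 17 in wild-type and 34, 56 and 32 in *dbp2Δ*, and its log2 fold change was 1.50 (SE 0.36, adjusted p = 0.0136). Its adjusted p was 0.0581 without *dbp2Δ* replicate 2. snR73 had 7, 3 and 2 counts in wild-type and 3, 12 and 7 in *dbp2Δ*, which was too few to test.

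Levels of array members were also set against each other. The log2 ratio of snR78 to snR76 within a library, which needs no scaling between libraries, was -1.64, -1.80 and -0.68 in wild-type and 0.51, 0.38 and 0.08 in *dbp2Δ*. That of snR75 to snR76 was -2.93, -2.79 and -2.52 in wild-type and -1.02, -1.28 and -1.23 in *dbp2Δ*. Both ratios were higher in every *dbp2Δ* library than in any wild-type library, by 1.70 and 1.57 on average. The exact two-sided permutation test gave p = 0.1 for either, the smallest value that 3 libraries against 3 allow, and an adjusted p of 0.171 over the 12 ratios examined. For snR72 over snR76 the difference was 0.60 and the exact permutation p was 0.2. snR76 had the smallest log2 fold change of the 6 array genes tested. These differences thus restate the fold changes above and are no separate support.

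**Figure D2:**
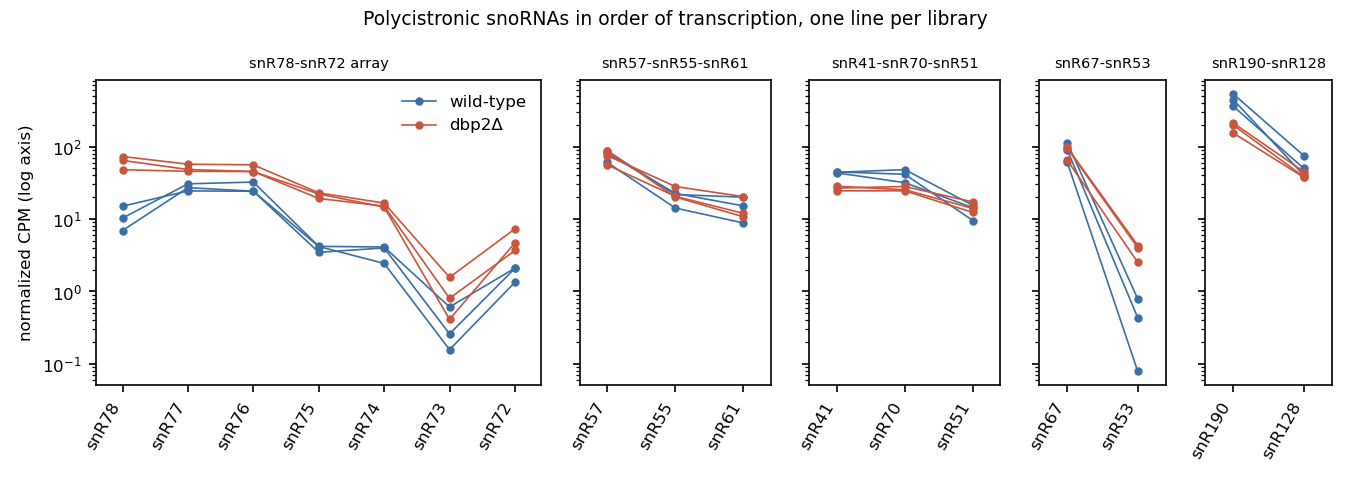
Normalized CPM (log axis) is plotted for the snoRNAs of each polycistronic unit in order of transcription, with 1 line per library, blue for the 3 wild-type and red for the 3 *dbp2Δ* libraries. In the array from snR78 to snR72 the red lines lie above the blue ones for all genes but snR73, while for snR190 and snR41 they lie below.

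The other 4 polycistronic units differed from this one. The pair snR67-snR53 on chromosome V carries the largest rise of all stable RNA genes, at low counts. snR53 had 9, 5 and 1 counts in wild-type and 29, 33 and 22 in *dbp2Δ*, a log2 fold change of 3.05 (SE 0.58, adjusted p = 0.0063). Its partner snR67, the first of the pair, had 113, 90.1 and 60.9 CPM in wild-type and 94.6, 97.3 and 64.7 CPM in *dbp2Δ*, a log2 fold change of -0.04 (SE 0.24, adjusted p = 0.899). The ratio of snR53 to snR67 was thus higher in *dbp2Δ* in every library, by 3.33 on the log2 scale (exact permutation p = 0.1, adjusted p = 0.171). The antisense element of snR53 faces position 796 of 18S rRNA and ends in an unusual box.
snR53: uccaugcuaaucAUGA

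The pair snR190-snR128 on chromosome X holds snR190 and snR128, which is U14, needed for cleavage of the pre-rRNA. snR190 had 445, 533 and 361 CPM in wild-type and 198, 211 and 154 CPM in *dbp2Δ*, and fell by 1.25 (SE 0.19, adjusted p = 0.00282). U14 had 40.3 to 75.0 CPM in wild-type and 37.6 to 45.0 CPM in *dbp2Δ*. The strains overlapped for U14, whose log2 fold change was -0.45 (SE 0.23, adjusted p = 0.146). It would be called lower without wild-type replicate 1, at an adjusted p of 0.0350. The ratio of snR190 to snR128 was lower in each *dbp2Δ* library than in any wild-type library, by 0.84 on average (exact permutation p = 0.1, adjusted p = 0.171).

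In the array snR41-snR70-snR51 on chromosome XVI the first 2 genes fell. snR41 had 43.3, 44.1 and 44.7 CPM in wild-type and 26.7, 28.3 and 24.5 CPM in *dbp2Δ*, a log2 fold change of -0.73 (SE 0.12, adjusted p = 0.00331). snR70 fell by 0.64 (SE 0.17, adjusted p = 0.0223), but was not called when wild-type replicate 2 or any *dbp2Δ* library was left out (up to 0.0801). snR51 had a log2 fold change of 0.15 (SE 0.24, adjusted p = 0.642). In the array snR57-snR55-snR61 on chromosome XII no gene was called. There the log2 fold changes were -0.06 for snR57, 0.23 for snR55 and -0.03 for snR61, with SEs of 0.20 to 0.36. Over all 5 units, 7 of 16 polycistronic snoRNAs tested rose and 3 fell.

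H/ACA box snoRNAs fold into hairpins joined by a hinge, box H, and end shortly after the trinucleotide ACA. In 18 of the 29 genes an ACA is followed by at most 6 bases before the annotated 3′ end. The last 24 bases are shown for 3 of those that fell most, with the ACA box in capitals.
snR11: auuagauucucuucacgcACAuac
snR32: ugggaaucagcuguaucuACAuuu
snR161: aacacuacuguaguucacACAuac

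snR3, which has no ACA in that window, fell most of all stable RNA genes. It had 75.5, 139 and 107 CPM in wild-type and 14.6, 23.8 and 14.7 CPM in *dbp2Δ*, a log2 fold change of -2.60 (SE 0.28, adjusted p = 0.00102). snR11 had 201, 264 and 136 CPM in wild-type and 42.3, 46.7 and 33.5 CPM in *dbp2Δ*, a log2 fold change of -2.30 (SE 0.25, adjusted p = 0.00104). snR32 had 58.0, 102 and 62.4 CPM in wild-type and 15.0, 17.9 and 12.9 CPM in *dbp2Δ*, a log2 fold change of -2.28 (SE 0.25, adjusted p = 0.00104). In all 3 genes every *dbp2Δ* library lay below every wild-type library. snR161 had few counts in *dbp2Δ*: 13, 33 and 19, beside 80, 166 and 175 in wild-type (7.0 to 14.4 CPM). It fell by 2.08 (SE 0.42, adjusted p = 0.00761). snR30, needed for the cleavages that release 18S rRNA, had 741, 863 and 583 CPM in wild-type and 230, 260 and 241 CPM in *dbp2Δ*, a log2 fold change of -1.58 (SE 0.17, adjusted p = 0.001). snR83 fell by 1.80 (SE 0.33), from 163 to 392 CPM in wild-type to 57.0 to 94.8 CPM.

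Of all 5936 genes tested, 3001 had a negative fold change and 28.1% were lower without overlap between strains. Of the 27 H/ACA box snoRNAs tested, 25 had a negative fold change, with a median of -1.20, and for the 23 that fell the strains did not overlap. Their mean levels in *dbp2Δ* ran from 2.76 CPM for snR161 to 244 CPM for snR30. Only snR80 rose, from 5.42, 6.25 and 10.1 CPM in wild-type to 24.4, 23.2 and 13.2 CPM in *dbp2Δ*, a log2 fold change of 1.48 (SE 0.32, adjusted p = 0.0104). snR33 and snR84 had log2 fold changes of -0.24 and -0.27 with overlapping strains. snR10 was near 0 at 0.08 (SE 0.36), with 19 to 44 counts per library. It shares 216 of its 245 bases with the open reading frame YGL088W on the same strand, which had 0 counts in every library. Only 29 bases of snR10 are not shared. Whether shared reads were left out in the counting was not tested, so its level and fold change are uncertain.

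C/D box snoRNAs are 78 to 490 nt long. Genes of over 110 nt fell in 8 of 11 cases and rose in 1, with a median log2 fold change of -1.21. Genes of up to 110 nt, those of the arrays included, fell in 3 of 29 cases and rose in 8, with a median of -0.03. The limit of 110 nt was set after the values were seen. Among the longer ones snR45 had 92.6, 147 and 67.6 CPM in wild-type and 37.3, 32.0 and 24.3 CPM in *dbp2Δ*, a log2 fold change of -1.72 (SE 0.30, adjusted p = 0.00449). snR4 fell by 1.60 (SE 0.26, adjusted p = 0.00362) and snR13 by 1.40 (SE 0.28, adjusted p = 0.00729). snR39B, with 96 nt, fell as well, by 1.25 (SE 0.27, adjusted p = 0.00974).

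U3, which base-pairs with the pre-rRNA and is needed for the early cleavages, is encoded by the genes snR17a and snR17b. snR17a had 1322, 1555 and 1228 CPM in wild-type and 860, 892 and 766 CPM in *dbp2Δ*, a log2 fold change of -0.71 (SE 0.15, adjusted p = 0.010). snR17b had 467, 541 and 248 CPM in wild-type and 196, 178 and 170 CPM in *dbp2Δ*, a log2 fold change of -1.21 (SE 0.27, adjusted p = 0.0111). Neither gene overlapped between strains, but without *dbp2Δ* replicate 3 the adjusted p of snR17a was 0.0526. The copies are closely related in sequence, so that their shared reads are uncertain, and their ratio did not separate the strains (difference -0.43, exact permutation p = 0.3). snR17a shares 78 of its 490 bases with the open reading frame *IRC13*, which had at most 1 count per library.

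Of the 23 C/D box snoRNAs made by RNA polymerase II that lie neither in a polycistronic unit nor in an intron, 2 rose. snR87 had 4.98, 4.68 and 4.96 CPM in wild-type and 16.0, 15.1 and 12.4 CPM in *dbp2Δ*, a log2 fold change of 1.57 (SE 0.20, adjusted p = 0.00159). snR68 had 14.6 to 16.2 CPM in wild-type and 18.9 to 29.8 CPM in *dbp2Δ*, a log2 fold change of 0.77 (SE 0.20, adjusted p = 0.0201). The call of snR68 was lost in limma-voom (adjusted p = 0.0676) and when wild-type replicate 2 or *dbp2Δ* replicate 1 or 2 was left out (up to 0.080). snR52, which is transcribed by RNA polymerase III, had 37.8, 41.6 and 38.3 CPM in wild-type and 40.6, 26.9 and 25.8 CPM in *dbp2Δ*. It was not called, at a log2 fold change of -0.34 (SE 0.19, adjusted p = 0.186), but fell without *dbp2Δ* replicate 1 (adjusted p = 0.0322).

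**Figure D3:**
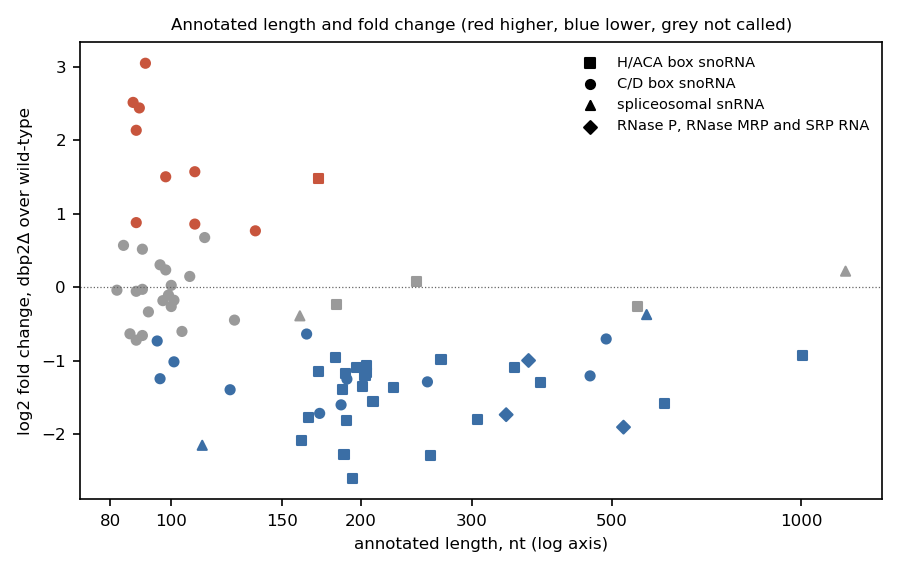
The log2 fold change of *dbp2Δ* over wild-type (vertical axis) is plotted against the annotated length in nt (log axis) for the 74 stable RNA genes tested, with the class as the symbol and the call as the colour. The genes called higher lie between 87 and 171 nt, and Spearman's rho over the 74 genes is -0.56.

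Across the 74 genes, annotated length and log2 fold change had a Spearman's rho of -0.56 and a Pearson's r of -0.43 with log2 length. Within the 40 C/D box snoRNAs rho was -0.46, and within the 27 H/ACA box snoRNAs it was 0.11. These are descriptions over genes that share the same 6 libraries and, in part, 1 precursor. The share of uridine, the base that takes up the label, had a rho of 0.14. The level itself, as log2 mean CPM, had a rho of -0.45 over the 74 genes and of -0.50 within C/D box snoRNAs. The RNA was sonicated, bound to streptavidin and cleaned on size-selecting columns, and the part of these steps in the relation with length was not tested.

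Of the 6 spliceosomal snRNA genes, 4 could be tested. U1 (snR19) pairs with the 5′ splice site, U2 (LSR1) with the branchpoint, and U6 (snR6), which is brought in by U4 (snR14), takes over the 5′ splice site. The stretches that do so are shown in capitals with their surroundings, as the R64 gene sequences give them.
snR19 (U1): auACUUACcuuaagaua
LSR1 (U2): agaucaaguGUAGUAucuguucuu
snR6 (U6): ugaaacaauACAGAGAugaucagca

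U1 had 408, 428 and 459 CPM in wild-type and 342, 328 and 329 CPM in *dbp2Δ*, a log2 fold change of -0.37 (SE 0.11, adjusted p = 0.0337). This call was lost without a TMM factor (adjusted p = 0.0849), with upper quartile scaling (0.0567) and when wild-type replicate 2 or any *dbp2Δ* library was left out (up to 0.132). U2 had 1816, 1752 and 1670 CPM in wild-type and 1734, 1702 and 2652 CPM in *dbp2Δ*, so that *dbp2Δ* replicate 3 stood apart. Its log2 fold change was 0.22 (SE 0.21, adjusted p = 0.427), and -0.03 without that library. U4 had 43.2, 53.0 and 68.8 CPM in wild-type and 40.6, 52.4 and 33.0 CPM in *dbp2Δ*, a log2 fold change of -0.39 (SE 0.22, adjusted p = 0.19). A listed non-coding transcript of 825 bases on the other strand spans all 160 bases of snR14 and had 514 to 1119 counts. How strand was treated in the counting was not given in the sources used here, and reads of either strand cannot be told apart.

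U6, the only snRNA made by RNA polymerase III, had few counts: 20, 63 and 90 in wild-type and 6, 14 and 5 in *dbp2Δ*. Its log2 fold change was -2.15 (SE 0.63, adjusted p = 0.0285), with overlapping strains. Without wild-type replicate 2 and without *dbp2Δ* replicate 1 or 3 it was not called, at adjusted p-values up to 0.102. U5 is listed in a long and a short form that share 179 bases. The short form, snR7-S, had 0 counts in every library. The long form, snR7-L, had 2, 4 and 1 counts in wild-type and 9, 14 and 4 in *dbp2Δ*, too few to test. All bases of the short form and all but 35 of the 214 of the long form are shared. Whether shared reads were left out in the counting was not tested, so these counts set no limit on the level of U5.

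SCR1 is the RNA scaffold of SRP, which targets secretory proteins to the endoplasmic reticulum. It had the highest CPM per length of the 74 genes tested, at 10687 CPM per kb in wild-type and 2855 CPM per kb in *dbp2Δ*. These are counts of RNA enriched for the label and do not measure the amount of mature RNA. The next 4 per length in wild-type were snR17a at 2792, snR190 at 2349, LSR1 at 1486 and snR30 at 1203 CPM per kb, against a median of 281 CPM per kb over the 74 genes. SCR1 had 4305, 6252 and 6179 CPM in wild-type and 1500, 1470 and 1501 CPM in *dbp2Δ*, a log2 fold change of -1.90 (SE 0.21, adjusted p = 0.00102). The *dbp2Δ* libraries lay close together at 26.7% of the wild-type level. RPR1, the RNA of RNase P, which removes the 5′ leader of precursor tRNA, had 402, 436 and 432 CPM in wild-type and 170, 231 and 235 CPM in *dbp2Δ*, a log2 fold change of -0.998 (SE 0.15, adjusted p = 0.00307). NME1, the RNA of RNase MRP, which cuts pre-rRNA, had 266, 332 and 166 CPM in wild-type and 81.4, 84.5 and 63.5 CPM in *dbp2Δ*, a log2 fold change of -1.73 (SE 0.26, adjusted p = 0.00257). SCR1 and RPR1 are both made by RNA polymerase III, and the log2 ratio of SCR1 to RPR1 was lower in every *dbp2Δ* library, by 0.87 (exact permutation p = 0.1, adjusted p = 0.171). NME1 is made by RNA polymerase II, and its ratio to RPR1 did not separate the strains (difference -0.68, exact permutation p = 0.2).

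**Figure D4:**
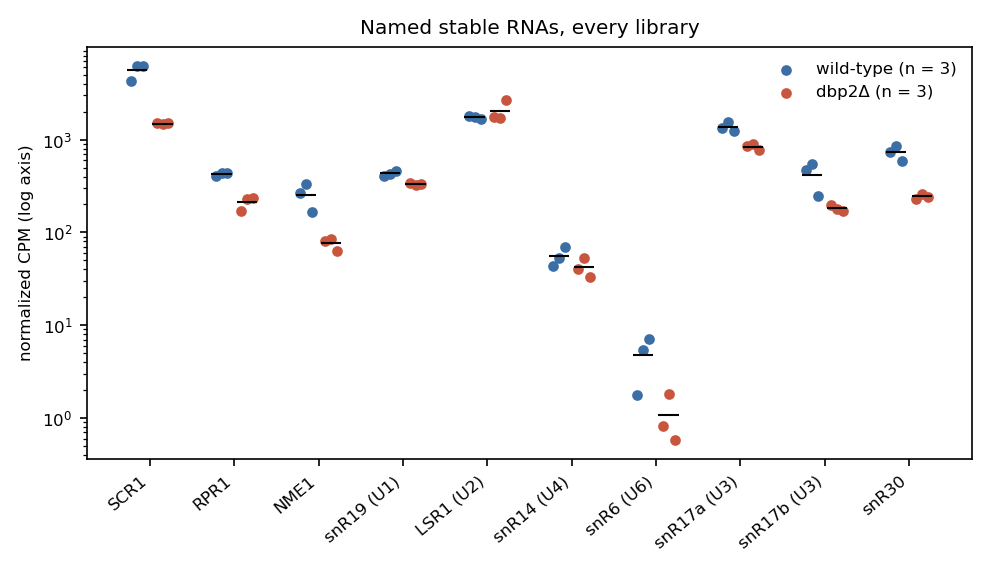
Normalized CPM (log axis) is plotted for 10 named stable RNAs, with 1 point per library, blue for the 3 wild-type and red for the 3 *dbp2Δ* libraries, and black lines at the means. SCR1, RPR1, NME1, snR17a, snR17b and snR30 show no overlap between strains, and 1 *dbp2Δ* point of LSR1 lies at 2652 CPM.

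Summed over genes, the stable RNAs took 1.40%, 1.61% and 1.39% of all gene counts in wild-type and 0.775%, 0.784% and 0.779% in *dbp2Δ* (exact two-sided permutation p = 0.1, the smallest possible with 3 against 3). Of these counts SCR1 made up 31.4% to 43.1% in wild-type but 19.3% to 20.1% in *dbp2Δ*. Without SCR1 the share was 0.925% ± 0.123 in wild-type and 0.627% ± 0.00698 in *dbp2Δ* (SD, n = 3 each), with no overlap. H/ACA box snoRNAs took 0.310% ± 0.0600 in wild-type and 0.129% ± 0.0179 in *dbp2Δ* (SD, n = 3 each), a ratio of 0.416. C/D box snoRNAs took 0.331% ± 0.0564 and 0.222% ± 0.0307, a ratio of 0.671. The share of spliceosomal snRNAs overlapped, at 0.218% ± 0.0123 and 0.246% ± 0.0491 (exact permutation p = 0.5). Nuclear tRNA genes, another class of short stable RNA, took 0.0355% and 0.0154%, a ratio of 0.433. Of 275 tRNA genes only 49 could be tested, of which 28 fell and 4 rose.

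**Figure D5:**
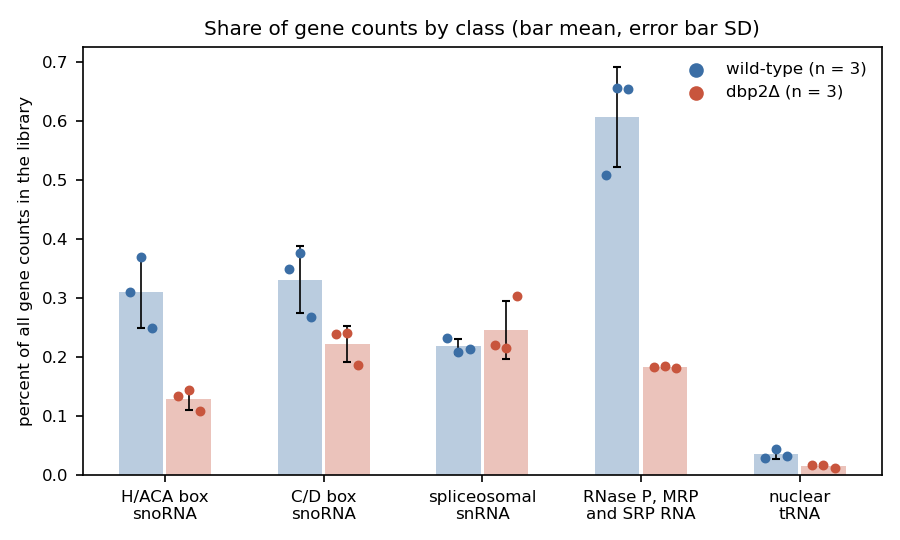
The share of all gene counts of a library, in percent, is plotted by class, with 1 point per library, a bar from 0 to the mean of 3 libraries and an error bar of 1 SD. H/ACA box snoRNAs, C/D box snoRNAs, the RNase P, MRP and SRP RNAs and nuclear tRNAs are each lower in all 3 *dbp2Δ* libraries. The spliceosomal snRNAs overlap at means of 0.218% and 0.246%.

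The stable RNAs also varied together within a strain. Among the wild-type libraries replicate 2 was the highest for 47 of the 74 genes and for 22 of the 27 H/ACA box snoRNAs, against 29.3% of all genes. Among the *dbp2Δ* libraries replicate 3 was the lowest for 61 of the 74 genes and for 23 of the 27 H/ACA box snoRNAs, against 32.7% of all genes. The median log2 ratio over the 74 genes was 0.56 between wild-type replicates 2 and 3 and 0.47 between *dbp2Δ* replicates 2 and 3, beside -0.71 between the strains. For H/ACA box snoRNAs these medians were 0.57 and 0.48, beside -1.20. Without wild-type replicate 2, 34 of 75 stable RNA genes tested were called lower and 10 higher. Of all 5960 genes tested in that fit, 993 were lower and 833 higher. Without *dbp2Δ* replicate 3, 31 of 75 stable RNA genes were called lower and 11 higher. Of all 6048 genes tested in that fit, 834 were lower and 718 higher. What moved these libraries was not tested.

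The 8 intronic snoRNAs (snR18, snR24, snR38, snR39, snR44, snR54, snR59 and snR191) had 0 counts in all 6 libraries. Each lies wholly within its host gene on the same strand, and whether reads shared by 2 genes were left out in the counting was not tested, so these counts set no limit on their level. The host genes were well counted, at 1381 counts or more in every library. *EFB1* and *TEF4*, which encode translation elongation factor 1B subunits and host snR18 and snR38, had log2 fold changes of -0.60 (SE 0.18, adjusted p = 0.0283) and -0.72 (SE 0.19, adjusted p = 0.0204). *NOG2*, a GTPase of large ribosomal subunit assembly that hosts snR191, rose by 0.59 (SE 0.15, adjusted p = 0.017). These calls were each lost when wild-type replicate 2 or any *dbp2Δ* library was left out, at adjusted p-values up to 0.103 for *EFB1*, 0.0834 for *TEF4* and 0.0701 for *NOG2*. The other hosts, *ASC1*, *RPL7A*, *RPL7B*, *RPS22B* and *IMD4*, were not called, with log2 fold changes from -0.24 for *ASC1* to 0.57 for *RPL7A*. *RPL7A* was called higher by DESeq2, by limma-voom and without a TMM factor, at adjusted p-values of 0.0261, 0.0264 and 0.0398. Without wild-type replicate 3, *RPL7A*, *RPL7B* and *RPS22B* were called higher, at adjusted p-values of 0.00068, 0.00377 and 0.00285. *ASC1* stood at 1769 CPM in wild-type replicate 3 against 621 and 685 CPM in the others, and its log2 fold change was 0.41 without that library (adjusted p = 0.0144).

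Short motifs of transcription factors were searched in the 250 bases upstream of the 60 genes with an RNA polymerase II promoter of their own, on both strands. The first gene of each polycistronic unit was counted among these. Tbf1 binds upstream of many yeast snoRNA genes. Its motif AACCCTA was present in 2.22% of 6074 gene windows and in 7 of the 60, which are 6 of the 35 genes that fell and 1 of the other 25. The Reb1 motif CGGGTAA was present in 7.21% of all windows, in 8 of the 35 genes that fell and in 1 of the other 25. snR11 holds both. The windows of a Tbf1 motif in some of the genes described above are shown as read on the strand of the gene, with the motif in capitals. snR13, also described above, holds the motif 160 bases before the gene. The motif starts 192 bases before snR11, 191 before snR30 and 171 before NME1.
snR11: gtcgttaccAACCCTAcattttttt
snR30: tagcgtagtAACCCTAaaccatcag
NME1: tcctgtatgAACCCTAattttcctt

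The genes of proteins that bind, process or end these RNAs were read from the same fit. Of 72 such genes, 14 were higher (19.4%) and 5 lower (6.94%) in *dbp2Δ*, beside 20.0% and 21.9% of all genes. This count depended on single libraries, as did that of all genes. It was 12 in all without wild-type replicate 2 and 30 without wild-type replicate 3, beside 19. Without *dbp2Δ* replicates 1 and 2 it was 11 and 8. All genes called numbered 1826, 3084, 1510 and 1427 in these fits, in the same order, beside 2488. Of the C/D snoRNP core, the scaffold proteins *NOP56* and *NOP58* rose by 0.43 (SE 0.13, adjusted p = 0.0349) and 0.39 (SE 0.12, adjusted p = 0.0373), and each call was lost when any library but wild-type replicate 3 was left out, at adjusted p-values up to 0.148 and 0.125. The call of *NOP58* was also lost with no filter on low counts (adjusted p = 0.0531). No gene of the H/ACA snoRNP core (*CBF5*, *NHP2*, *GAR1* and *NOP10*) was called. Of the assembly factors *HIT1* had a log2 fold change of 0.73 (SE 0.12), and *RSA1* and *SHQ1*, whose product is a chaperone of Cbf5, had 0.61 (SE 0.15) and 0.44 (SE 0.14). *RSA1* was not called without any 1 of the *dbp2Δ* libraries (up to 0.0617), nor was *SHQ1*, which was also not called without wild-type replicate 2 (up to 0.133).

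Of the 13 processing and exosome genes, *RNT1*, which encodes the endonuclease that cuts snoRNA precursors, rose by 0.56 (SE 0.14, adjusted p = 0.0173), and *TGS1*, the methylase of the snRNA and snoRNA cap, by 0.51 (SE 0.13, adjusted p = 0.015). Both calls were lost without wild-type replicate 2 or without *dbp2Δ* replicate 2, and that of *RNT1* also without *dbp2Δ* replicate 3 and that of *TGS1* without *dbp2Δ* replicate 1, at adjusted p-values up to 0.0725 and 0.0656. Of the Nrd1 pathway list, 1 of 7 genes was called: *REF2*, at 0.50 (SE 0.12, adjusted p = 0.0138), and not without *dbp2Δ* replicate 1 or 2 (up to 0.060). Of 15 Sm and Lsm genes, whose products form rings on snRNAs and mRNA ends, 4 fell (26.7%, beside 21.9% of all genes) and none rose. A negative fold change was found in 13 of the 15, beside 3001 of all 5936 genes tested. *SMX3* fell by 0.68 (SE 0.16), *LSM5* by 0.66 (SE 0.13) and *LSM1* by 0.48 (SE 0.10), and the call of *SMX3* was lost without wild-type replicate 2 or *dbp2Δ* replicate 2 (up to 0.0624).

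Of 11 RNase P and RNase MRP protein genes 4 rose (36.4%, beside 20.0% of all genes) and none was called lower. Among those that rose were *POP6* by 0.85 (SE 0.18), *RMP1* by 0.81 (SE 0.16) and *SNM1* by 0.56 (SE 0.14). The call of *SNM1* was lost without *dbp2Δ* replicate 1 or 2 (up to 0.0693). Of 6 SRP protein genes *SRP14* fell by 0.58 (SE 0.12, adjusted p = 0.00877) and the others were not called. Of the 3 telomerase protein genes *EST2*, the reverse transcriptase subunit, rose by 1.55 (SE 0.20, adjusted p = 0.00161), from 42.0 ± 11.2 CPM in wild-type to 123 ± 8.79 CPM in *dbp2Δ* (SD, n = 3 each). *EST1* rose by 0.86 (SE 0.21, adjusted p = 0.0151), which was not called without wild-type replicate 2 or *dbp2Δ* replicate 2 (up to 0.0616).

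Reading past the end of a snoRNA gene would enter the next gene on the same strand, and 34 such genes start within 1000 bp of a snoRNA or snRNA gene. Of these, 4 were higher and 9 lower in *dbp2Δ* (11.8% and 26.5%, beside 20.0% and 21.9% of all genes), with a median log2 fold change of 0.11. The total of 13 was 17, 7 and 18 without wild-type replicates 1, 2 and 3. It was 6, 5 and 5 without *dbp2Δ* replicates 1, 2 and 3. All genes called numbered 2645, 1826, 3084, 1510, 1427 and 1552 in these fits, in the same order, beside 2488. *PMD1*, 679 bp beyond snR52, rose from 253, 232 and 197 CPM in wild-type to 427, 447 and 431 CPM in *dbp2Δ*, a log2 fold change of 0.93 (SE 0.13, adjusted p = 0.00227). snR52 is transcribed by RNA polymerase III and was itself not called (log2 fold change -0.34). Whether reads past the end of a snoRNA gene entered any of these neighbours was not tested. *PDX3*, 229 bp beyond snR161, had 91.2, 120 and 219 CPM in wild-type and 59.0, 61.1 and 56.7 CPM in *dbp2Δ*, and fell by 1.29 (SE 0.30). *STP22*, 650 bp beyond snR43, fell by 1.05 (SE 0.24). *DFR1*, 309 bp beyond snR17a, had a log2 fold change of -1.02 (SE 0.34, adjusted p = 0.0461), which was -0.54 without wild-type replicate 3 and was called in 1 of 6 fits with 1 library left out and not without a TMM factor (adjusted p = 0.0517). Without *dbp2Δ* replicate 1 or 3 *PDX3* was not called either (up to 0.0513).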

How the data were processed

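TT-seq libraries came from 3 wild-type and 3 *dbp2Δ* cultures. Labelled RNA was sonicated, enriched on streptavidin, depleted of rRNA, size-selected on columns and made into directional libraries. Per the labels and the file headers, the values deposited by the authors are raw read counts of 7032 genes in each library and, in a second sheet, of non-coding transcripts opposite genes, of which only the one opposite snR14 is given. The tools listed in the submitters' processing notes are edgeR and featureCounts, with no version, and the build is R64. The aligner and the strand setting were not given in the sources used here.

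All genes were fitted together with edgeR 4.0.16 under R 4.3.3 (filterByExpr with a minimum count of 10, TMM, glmQLFit and glmQLFTest, strain as the only factor) and Benjamini-Hochberg adjustment over the 5936 genes kept. TMM factors ran from 0.935 to 1.04. DESeq2 1.42.0, limma 3.58.1 (voom), other scalings and filters, a replicate block and each library left out were alternatives. Ratios within a library used counts plus 0.5 and an exact two-sided permutation test. Same-numbered libraries of the strains did not deviate together (correlations of -0.09, -0.14 and 0.00). The test was checked on simulated data. Libraries held 6968216 to 13134963 counts. Python 3.11.15 (numpy 2.4.6, pandas 2.3.3, matplotlib 3.10.9) read names, coordinates and sequences from the R64 annotation, in which all 85 genes were found.

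The genes and lists were chosen with earlier results of these data known. Named are the snRNAs, the RNAs of RNase P, RNase MRP and SRP, both U3 genes, snR30, U14 and snR52, the polycistronic and intronic snoRNAs with their hosts, the 5 largest and 5 smallest fold changes, the 5 highest levels per length, and the called partner and neighbour genes with the largest changes (up to 3 per list and 4). snR4, snR10, snR13, snR33, snR39B, snR45, snR68, snR80, snR83 and snR84 were named after their values were seen.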

Additional observations from a re-analysis of the deposited data

How the results depend on the processing

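Over all alternatives, 8 to 11 stable RNA genes were called higher and 31 to 42 lower, beside 10 and 39. With 1 library left out, 8 to 11 were called higher and 31 to 42 lower. Then 8 to 30 partner genes were called beside 19, and 5 to 18 neighbour genes beside 13. All genes called in those fits ranged from 1427 to 3084, beside 2488. H/ACA box snoRNAs called lower numbered 20 to 23 and array snoRNAs called higher 5 or 6 under every alternative. With the replicate number as a block, 11 stable RNA genes were called higher and 39 lower, and 2001 of all genes were called beside 2488. Since the numbers do not pair the libraries, the block is given here only. Without a TMM factor 1305 genes were higher and 1073 lower, with upper quartile scaling 1307 and 1149, beside 1187 and 1301. Either moved the median of all genes by at most 0.07 on the log2 scale, and 10 stable RNA genes were then higher and 37 lower, all of them also called in the same direction with TMM.

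Changes of sign touched only genes that were not called in the main fit. The reversed value of *ASC1*, 0.41 without wild-type replicate 3, was itself called (edgeR adjusted p = 0.0144). Without a TMM factor the log2 fold changes were 0.018 for snR57, 0.036 for snR61 and 0.028 for snR67, with upper quartile scaling 0.00027 for snR57, 0.024 for snR61 and 0.015 for snR67, and in limma-voom 0.0071 for snR61. With 1 library left out, snR57 ran from -0.21 to 0.10, snR61 from -0.37 to 0.26, snR67 from -0.25 to 0.18, snR10 from -0.12 to 0.45, snR51 from -0.044 to 0.28, LSR1 from -0.029 to 0.33 and *ASC1* from -0.50 to 0.41. Also uncalled, snR40, snR47, snR64 and snR65 changed sign with 1 library left out, snR65 running from -0.32 to 0.31, and snR65 also did so in limma-voom and with the replicate block. The planned ratio of an intronic snoRNA to its host was not run, since these snoRNAs had 0 counts in every library. Low counts limit snR53, snR6, snR72, snR73, snR10, U5 and, in *dbp2Δ*, snR161. The genes of snR10 and U5 also share most of their bases with another gene on the same strand.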
